A study of Mus musculus with 6 samples.

Results

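The genes described here encode the core of the RNA splicing machinery and its best known regulators. They were all rows of the deposited count table whose mouse symbol begins with Hnrnp and a letter, Srsf and a digit, Sf3a or Sf3b and a digit, Snrp and a letter from a to g, or Prpf and a digit. The rule found 60 of 18324 rows: 18 hnRNP genes, 10 SR genes, 8 SF3 genes, 11 Snrp genes and 13 Prpf genes. Of these, 59 had enough counts to be tested, and Srsf4 did not, with few counts in every library.

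The cells were B16-F10, a mouse melanoma line from ATCC that makes melanin, grown in serum-containing medium with no treatment named. They were separated on a cell sorter by the light scatter of melanin into high-pigmented cells (HPC) and low-pigmented cells (LPC), so both groups share the genotype and the culture conditions. The RNA was read by 3′-end sequencing in 3 HPC and 3 LPC libraries. Each HPC library shares a title suffix with 1 LPC library, giving 3 sets, called A (16-9-15), B (18-8-14) and C (1-9-14) here. The labels do not say what the suffix marks or whether the libraries come from separate cultures, so p-values measure the spread between these libraries, which may be technical.

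Splicing removes introns from precursor RNA and is carried out on the spliceosome, which is built from small nuclear ribonucleoproteins (snRNPs) that assemble anew on each intron. The Sm proteins encoded by most Snrp genes form the ring around the snRNAs, the SF3A and SF3B complexes are parts of the U2 snRNP that hold the branch site, and many Prpf proteins belong to the U4/U6.U5 tri-snRNP or remodel the complex before catalysis. SR proteins bind exons and generally favour the use of nearby splice sites, while hnRNP proteins coat precursor RNA and often, though not always, oppose it. Transcripts of many SR and hnRNP genes are themselves alternatively spliced, which 3′-end counts do not resolve.

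The promoter sequences are shown for 3 members: Hnrnpa1 and Hnrnpa3, called lower in HPC in the comparison of sets A and C below, and Prpf38b, whose HPC libraries all lay below the LPC libraries. Each is the 250 bases before the RefSeq transcription start, 5′ to 3′ on the gene's strand (GRCm38.p6), with CCAAT boxes on either strand (CCAAT or ATTGG) and the ETS motif CCGGAAG on either strand in capitals. Hnrnpa1 encodes hnRNP A1, a repressor of exon inclusion, and its window is chr15:103240147-103240396 on the plus strand, just before the gene at chr15:103240432-103246692.
Hnrnpa1: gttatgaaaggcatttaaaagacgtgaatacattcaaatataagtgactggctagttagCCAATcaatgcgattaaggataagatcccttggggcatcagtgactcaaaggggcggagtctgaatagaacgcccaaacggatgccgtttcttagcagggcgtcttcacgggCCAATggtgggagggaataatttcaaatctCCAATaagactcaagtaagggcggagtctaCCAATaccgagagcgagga
The window of Hnrnpa3, which encodes a close relative of hnRNP A1, is chr2:75659009-75659258 on the plus strand, before the gene at chr2:75659261-75669407.
Hnrnpa3: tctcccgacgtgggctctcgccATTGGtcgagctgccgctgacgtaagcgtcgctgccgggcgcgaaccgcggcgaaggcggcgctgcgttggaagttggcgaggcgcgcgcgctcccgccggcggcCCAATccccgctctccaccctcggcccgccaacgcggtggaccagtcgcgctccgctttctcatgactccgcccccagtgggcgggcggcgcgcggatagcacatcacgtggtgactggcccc
The window of Prpf38b, which encodes a serine- and arginine-rich homologue of a yeast protein needed for spliceosome activation, is chr3:108911730-108911979 on the minus strand, before the gene at chr3:108902805-108911727.
Prpf38b: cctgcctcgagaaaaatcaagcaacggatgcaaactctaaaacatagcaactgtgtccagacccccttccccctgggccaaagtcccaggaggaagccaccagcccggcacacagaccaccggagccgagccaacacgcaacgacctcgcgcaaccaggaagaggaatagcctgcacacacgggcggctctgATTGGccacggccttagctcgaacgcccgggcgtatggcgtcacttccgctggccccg
The windows of Hnrnpa1, Hnrnpa3 and Prpf38b hold 4, 2 and 1 CCAAT boxes, and none holds the ETS motif.

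RefSeq entries were found for 53 members, and 7 motifs were searched on both strands in the 300 bases from 250 before to 50 after the start. A gene counted as holding a motif if any of its RefSeq starts did, so genes with more starts had more sequence to match. Hnrnph1 had 5 starts and Hnrnpf 4, while many members had 1. The motifs were chosen with the results of these data known, and a match describes letters only. The families differed in which letters their promoters held. CCAAT occurred in 28 of 53 members (52.8%), against 43.2% of the tested genes with an entry and 41.1% of all genes with one. It was held by 13 of 17 hnRNP genes (76.5%) and by 40%, 33.3%, 33.3% and 54.5% of the SR, SF3, Snrp and Prpf genes. The ETS motif CCGGAAG showed the reverse order at the hnRNP and SF3 genes. It was held by 2 of 17 hnRNP genes (11.8%) and 5 of 6 SF3 genes (83.3%), against 35.8% of all members and 21.7% of tested genes. The core CRE letters TGACG lay in 30 of 53 members (56.6%) and in 0 of 6 SF3 genes, against 37.2% of tested genes. The E-box CACGTG was held by 17% of members and 12.4% of tested genes, the GC box GGGCGG by 67.9% and 71.6%, TATAAA by 11.3% and 8.19%, and AAGATGGCG by 3.77% and 4.11%.

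Library facts that bear on these genes are as follows. Gene counts ranged from 3819605 to 7311131 per library, and the median count of a member was 68 and 171.5 in the HPC and LPC libraries of set B against 549 to 773.5 in the other 4. Set B stood apart: the row RP23-81C12.3 took 53.9% and 27.1% of its gene counts (3.54% to 5.03% elsewhere). Mitochondrial ribosomal RNA took 12.2% and 7.69% (1.51% to 1.99% elsewhere). At an equal total depth that includes these rows, 10620 and 12670 genes were detected in set B, against 13799 to 14823. Less of that depth was thus left for other genes in set B. All 7 melanocyte lineage markers (Tyr, Tyrp1, Dct, Pmel, Mlana, Sox10 and Mitf) were present, with summed levels of 12350, 4443 and 20730 CPM (counts scaled to the normalised library size) in HPC sets A, B and C and 10620, 6189 and 17280 CPM in LPC. The sum, in which Dct held the most counts in every library, was thus higher in HPC in A and C. It was lower in HPC in B, against the pigment labels. Scaled to library size, all 7 were higher in HPC in C. In A, Tyr (502 counts in HPC and 507 in LPC) and Tyrp1 (9913 and 9852) were slightly lower in HPC once scaled. The rest of the 7 were higher in HPC in A. The HPC and LPC libraries of B had 2 and 20 counts of Tyr, 255 and 775 of Pmel and 168 and 225 of Mlana. Their normalised sizes were 1718202 and 3498081, and scaled to these, Mlana alone of the 7 was higher in HPC. Of the markers of other cell types, 2 of 5 fibroblast, 1 of 5 immune, 2 of 4 endothelial and 3 of 5 epithelial genes had a row, and their sums reached at most 15.1 CPM, highest for each type in the HPC library of set B. That library had 21 counts of Col1a2, 11 of Itgam, 20 of Pecam1 and 26 of Cdh1 and none of the other 4, and Itgam and Pecam1 were at 0 in the other 5 libraries. The part of set B's composition in the results was not tested, and results are given with and without it. In bulk RNA, fewer cells of a type and less RNA per cell cannot be told apart.

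Levels are CPM on library sizes normalised by TMM, a method meant to adjust for composition. The adjustment was not complete for set B. The median log2 difference of all genes from the mean of A and C was still -0.43 in HPC and -0.14 in LPC. Since 3′ reads come from 1 end of each transcript, levels do not grow with transcript length and were compared between genes on that scale. In these cells the hnRNP genes were the most abundant family. Their summed level was 4555, 1894 and 4300 CPM in HPC sets A, B and C and 6065, 2283 and 5253 CPM in LPC, so that HPC was lower within each set, while across sets the groups overlapped. The SR genes summed to 1427, 503 and 1288 CPM in HPC and 1712, 1472 and 1481 CPM in LPC, and there the groups did not overlap. That separation rests on Srsf11, which gave 855 of the 1472 CPM in the LPC library of set B. The Snrp genes summed to 1226, 1032 and 907 CPM in HPC and 1539, 1048 and 1162 CPM in LPC, which again overlapped. The SF3 genes summed to 741, 381 and 619 CPM in HPC and 812, 617 and 719 CPM in LPC, and the Prpf genes to 655, 508 and 752 CPM in HPC and 774, 1699 and 854 CPM in LPC. The groups overlapped in SF3 and not in Prpf. Every family sum was lower in HPC than in its own set's LPC library. The gap was smallest for the Snrp genes in set B, at a log2 ratio of -0.02, and widest for the Prpf genes in set B, at -1.74. In set B the median log2 difference of all genes between HPC and LPC was itself -0.20. That was wider than the Snrp ratio there and near the hnRNP ratio of -0.27. Summed over all members, HPC stood at 6929 ± 2291 CPM and LPC at 9163 ± 1910 CPM (SD, n = 3 each). As a share of gene counts before normalisation, members took 1.13%, 0.194% and 1.02% in HPC and 1.45%, 0.521% and 1.23% in LPC.

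**Figure D1:**
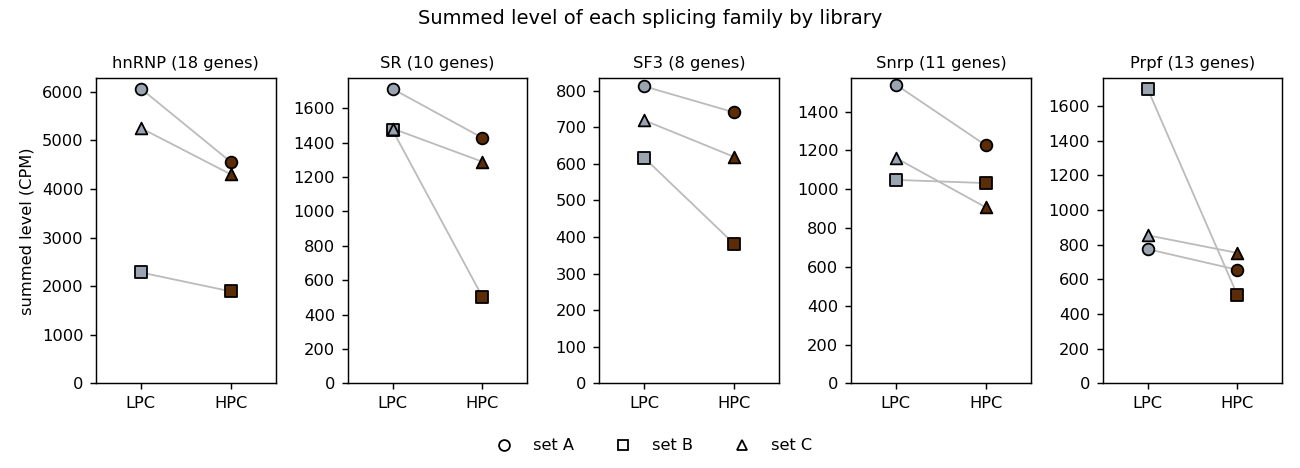
Summed level of each family in CPM (vertical axis) in the 3 HPC and 3 LPC libraries, with lines joining the libraries of 1 set. The HPC point lies below the LPC point of its set in all 5 families, and the hnRNP genes are low in both libraries of set B. The median log2 difference of all genes between HPC and LPC in set B was -0.20.

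Within the families a few genes carried most of the signal. The 5 highest genes made up 59.1% of the hnRNP sum, 77.8% of the SR sum, 88.1% of the SF3 sum, 72.3% of the Snrp sum and 78.2% of the Prpf sum. The highest mean levels over 6 libraries were those of Hnrnpf (661 CPM) among the hnRNP genes, Srsf11 (263 CPM) among the SR genes, Sf3b2 (250.4 CPM) in SF3 and Snrpg (231 CPM) in Snrp. The lowest were Hnrnph3 (21.5 CPM), Srsf4 (1.66 CPM), Sf3a3 (14.9 CPM), Snrpa (19.6 CPM) and Prpf3 (10.1 CPM). The mean of Srsf11 includes 855 CPM in the LPC library of set B, where its other 5 libraries lay between 108 and 162 CPM.

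The comparison of HPC with LPC asks whether splicing factor mRNA differs with the pigment content of cells of 1 line. With all 6 libraries and the groups alone, edgeR's quasi-likelihood test called no member at an adjusted p under 0.05 (0% of the 11324 genes tested were called), and the smallest adjusted p of a member was 0.9996. No member reached an unadjusted p under 0.05 either, against 0.336% of all genes. DESeq2 called none, with 1 member at an unadjusted p under 0.05, where 134 of all 11324 genes were. With the set as a block, edgeR called none (0% of all genes), the smallest adjusted p of a member was 0.9267, and 3 members had an unadjusted p under 0.05, where 213 of all genes did. The common biological coefficient of variation was 71.6% in the group-only comparison.

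The signs of the fitted changes were uneven. A total of 50 of 59 tested members (84.7%) had a log2 fold change below 0, with a median of -0.36, while 53% of all genes did, with a median of -0.04. The family medians lay close together: -0.32 for hnRNP (16 of 18 below 0), -0.39 for SR (8 of 9), -0.26 for SF3 (8 of 8), -0.38 for Snrp (8 of 11) and -0.48 for Prpf (10 of 13). Members share libraries and are not independent, so these are counts only, and the differences between families were not tested. The medians depended on single libraries. Without the HPC library of set B the median of all members was -0.06 and those of hnRNP, SR, SF3, Snrp and Prpf were -0.03, 0.01, -0.03, -0.29 and -0.35, where the median of all genes was 0.05. Without the LPC library of set A it was -0.12 for all members, without the LPC library of set C -0.22, and without the HPC library of set A -0.57, where the median of all genes was 0.03, -0.03 and -0.15. In 3 members the HPC libraries all lay below the LPC libraries (3.31% of all genes), and no member's HPC libraries all lay above (2.43% of all genes). All 3 were of the Prpf family, Prpf3 and Prpf38b among them.

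Compared within each set, 28 of 59 members (47.5%) were lower in HPC in all 3 sets, against 17.2% of all genes, and only Srsf2 was higher in all 3, against 12.9%. These 28 comprised 8 of 18 hnRNP, 6 of 9 SR, 4 of 8 SF3, 5 of 11 Snrp and 5 of 13 Prpf genes. By set, 86.4% of members in A, 67.8% in B and 78% in C were lower in HPC, where 48.6%, 55% and 50.2% of all genes were. The median within-set log2 difference of the members was -0.27, -0.41 and -0.20 in sets A, B and C, against 0.02, -0.20 and 0.00 for all genes.

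The families parted in set B. The hnRNP medians were -0.38, -0.21 and -0.27 and the SF3 medians -0.18, -0.25 and -0.21 in sets A, B and C. The median of all genes was 0.02, -0.20 and -0.002. In B the hnRNP median thus lay at that of all genes and the SF3 median little below it. Both lay further below it in A and C. Single genes in set B ran from -2.39 to 0.42 in hnRNP and from -4.77 to 1.01 in SF3. The Snrp medians were -0.22, -0.27 and -0.26, although only 6 of 11 Snrp genes were lower in B while all 11 were in A. The SR medians were -0.17, -0.57 and -0.15, and the Prpf medians -0.18, -0.89 and -0.07, so both families showed their widest gap in B. Outside set B, the largest family median was that of the hnRNP genes in both A and C.

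**Figure D2:**
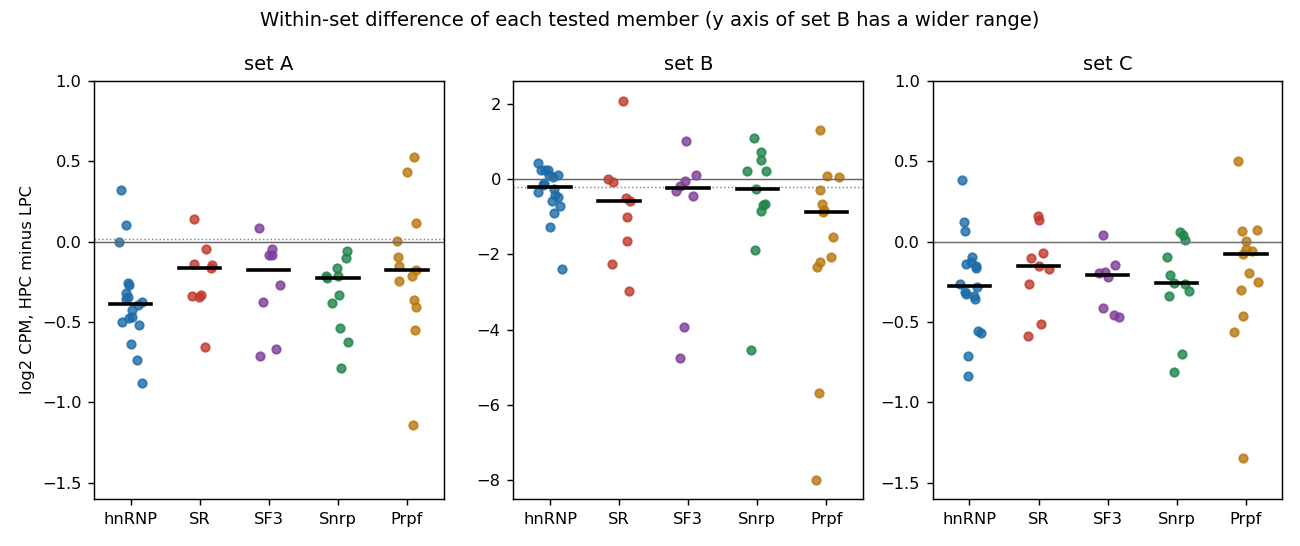
Log2 CPM difference between HPC and LPC (vertical axis, prior count 2) for each tested member in sets A, B and C, by family, with black bars at the family median and a dotted line at the median of all genes. In sets A and C most points lie between -1 and 0, while set B, whose axis has a wider range, spreads much wider in every family.

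Set B also shifted the levels themselves. The hnRNP genes were lower in set B than in the mean of A and C in both groups, with a median log2 difference of -1.30 in HPC and -1.24 in LPC, in 16 of 18 genes. The SR genes were too, at -1.21 and -1.48 in 8 of 9 genes, and the SF3 genes at -0.74 and -0.80 in 7 of 8. The Snrp genes lay nearer to 0 by this measure, at 0.03 in HPC and -0.40 in LPC (3 of 11 lower in both), and the Prpf genes were split, at -0.51 in HPC and 0.47 in LPC (4 of 13 lower in both). Over all genes the medians were -0.43 and -0.14, with 39.7% lower in both groups. Of the variance of log2 CPM over the 6 libraries, the set accounted for a median of 87.6% in hnRNP, 81.1% in SR, 66.4% in SF3, 61.6% in Snrp and 48.9% in Prpf genes. The pigment group accounted for a median of 6.02%, 8.74%, 6.70%, 12.8% and 21.3%, and was the largest share in 3 of 59 members. By design, 3 sets can take a larger share than 2 groups even without any effect. The shares were not computed for all genes, so they are not read as traits of these genes.

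Without set B and with the set as a block, edgeR called 3 members, all lower in HPC: Hnrnpa1, Hnrnpa3 and Snrpd3 (0.37% of 11906 genes were called lower and 0.932% higher). The unadjusted p was under 0.05 in 22 of 59 members (37.3%), all of them lower, against 6.06% of all genes lower. A total of 53 of 59 (89.8%) had a log2 fold change below 0, against 49.9% of all genes, and the medians were -0.25 for members and 0.00 for all genes. By family the medians were -0.33 for hnRNP (16 of 18 below 0), -0.17 for SR (8 of 9), -0.28 for SF3 (8 of 8), -0.26 for Snrp (11 of 11) and -0.24 for Prpf (10 of 13). The coefficient of variation in that fit was 19.5%. It rests on 4 libraries with 1 residual degree of freedom per gene plus what edgeR shares across genes. Without the block, the same 4 libraries gave no call among the members. With all 6 libraries, the block and weights for library quality, limma-voom called 1 member, Hnrnpa1 (0.0618% of all genes were called lower).

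Among the hnRNP genes, Hnrnpa1 stood at 99.6, 35.5 and 47.3 CPM in HPC sets A, B and C and at 183, 38.6 and 84.7 CPM in LPC. HPC was lower in each set, by little in B, and the groups overlapped because the sets differed. The group means were 60.8 ± 34.1 and 102 ± 74 CPM (SD, n = 3), a log2 fold change of -0.75 ± 0.64 (SE) in edgeR with no block. Without set B it was -0.87 ± 0.16, with an edgeR adjusted p of 0.00424, and with limma-voom the adjusted p was 0.0417. Hnrnpa1 overlaps no other annotated exon and shares no long near-identical stretch at its 3′ end with another gene.

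Hnrnpa3 stood at 599.5, 137 and 416 CPM in HPC and 778, 255 and 613 CPM in LPC. It was lower in HPC in each set, by a log2 difference of -0.38, -0.89 and -0.56. The edgeR log2 fold change was -0.51 ± 0.62 (SE) with no block and -0.48 ± 0.12 without set B, with an adjusted p of 0.0467 in the latter, and limma-voom gave an adjusted p of 0.1001. The last 400 bases of Hnrnpa3 share at least 100 bases at 95% identity or more with 30 other annotated genes, 20 of which have rows of their own, so its counts are uncertain.

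The most abundant hnRNP gene was Hnrnpf, which encodes a protein that binds G-rich RNA. It stood at 752, 349 and 677 CPM in HPC and 953, 389 and 848 CPM in LPC. It was thus lower in HPC in each set, but by less than the distance between sets, and its log2 fold change was -0.30 ± 0.48 with no block and -0.34 ± 0.12 without set B (edgeR adjusted p = 0.181). Hnrnpf shares its 3′ end sequence with 7 other genes, 5 of them in the table.

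Hnrnpk, which encodes a C-rich RNA binding protein, stood at 578, 255 and 658 CPM in HPC and 778, 217 and 817 CPM in LPC. HPC was lower in A and C and higher in B, and the log2 fold change without set B was -0.38 ± 0.12 (edgeR adjusted p = 0.139). Hnrnpk shares 3′ end sequence with 2 other genes, 1 of them in the table, and overlaps exons of Rmi1 on the opposite strand. Hnrnph3 had the lowest fold change of the family, with 19.2, 6.98 and 17.1 CPM in HPC and 32.2, 38.0 and 15.6 CPM in LPC. Its log2 fold change of -0.97 ± 0.61 came from sets A and B, and set C went the other way. Hnrnpul1, a relative of the scaffold protein hnRNP U, had the highest, at 0.15 ± 0.48, with 36.4, 23.9 and 24.2 CPM in HPC and 29.1, 17.7 and 29.5 CPM in LPC. Hnrnpa0 lay just outside the threshold in the fit without set B, at -0.50 ± 0.13 with an edgeR adjusted p of 0.0513.

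Of the SR genes, Srsf11 had the widest fitted gap, and it rested on 1 library. It stood at 157, 108 and 143 CPM in HPC and at 162, 855 and 149.7 CPM in LPC. The LPC library of set B was thus several times above all the others, which lay close together. The log2 fold change was -1.51 ± 0.70 in edgeR with no block (unadjusted p = 0.0627), -0.20 without the LPC library of set B, and -0.07 ± 0.14 without the whole set. The gene lies at chr3:158010473-158036639 on the minus strand and overlaps no other annotated exon.

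Srsf5, which encodes an SR protein with a pair of RNA recognition motifs, stood at 267, 149 and 305 CPM in HPC and 296, 210.1 and 273 CPM in LPC, lower in HPC in A and B and higher in C. Srsf10, which encodes an SR protein that acts as a repressor when dephosphorylated, stood at 121, 48.3 and 105 CPM in HPC and 133, 97.2 and 118 CPM in LPC. The fitted log2 fold change was -0.34 ± 0.44 with no block and -0.04 without the HPC library of set B. Srsf2, which encodes the exon-binding protein SC35, was the only member above its LPC partner in every set, with 31.4, 19.2 and 33.0 CPM in HPC and 28.4, 4.29 and 30.0 CPM in LPC. The gap was wide in set B alone, where the LPC library had 15 counts, and the log2 fold change of 0.41 ± 0.72 was 0.13 ± 0.22 without set B and -0.07 without the LPC library of set B. Srsf2 overlaps exons of Mettl23 and Mfsd11 on the opposite strand, and whether the counting used strand is not given in the sources used here.

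The SR genes nearest the threshold without set B were Srsf3, at -0.48 ± 0.13 (edgeR adjusted p = 0.0843), Srsf1, at -0.44 ± 0.13 (adjusted p = 0.118), and Srsf7, at -0.47 ± 0.15 (adjusted p = 0.151). Srsf1 encodes the founding SR protein SF2/ASF, and its level shows how far set B stood from the rest: 249.7, 27.4 and 185 CPM in HPC and 316, 40.9 and 263 CPM in LPC. Both set B libraries were low, and HPC was the lower library in every set.

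**Figure D3:**
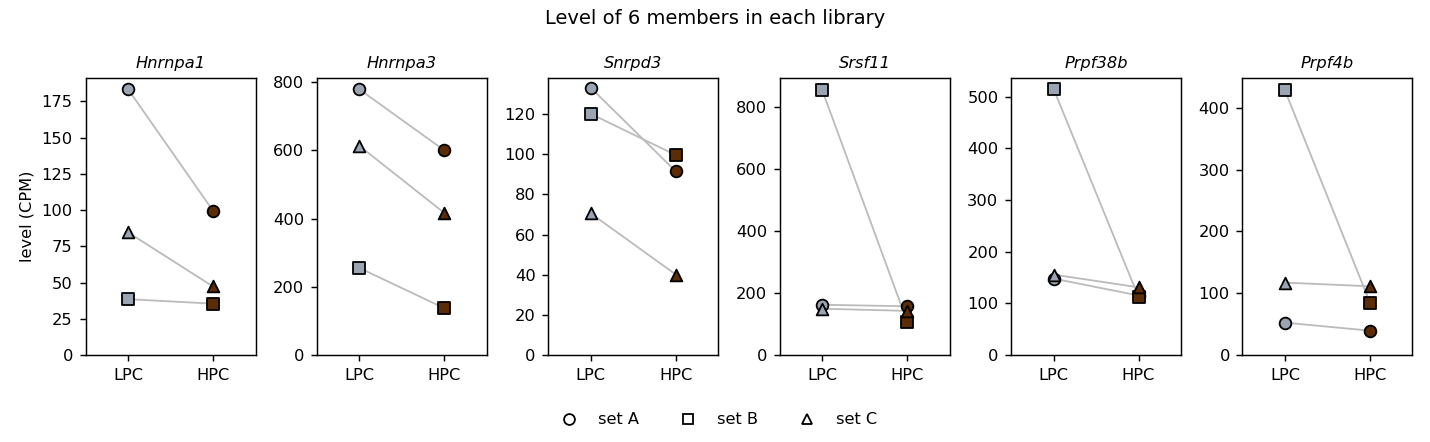
Level of 6 members in CPM (linear vertical axis from 0, scaled per gene) in each LPC and HPC library, with lines joining the libraries of 1 set. All 6 slope the same way in every set, and Srsf11, Prpf38b and Prpf4b part most in set B, where the LPC library stands alone. The 6 were picked by their results, so nothing is read from the shared direction. Some slopes are slight, as for Srsf11 in A and C (log2 differences of -0.04 and -0.07).

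In SF3, Sf3b2, which encodes a branch site binding subunit, had the most even levels: 248, 232 and 219 CPM in HPC and 234, 318 and 250.5 CPM in LPC, and a log2 fold change of -0.20 ± 0.34. Sf3b1, which encodes the largest SF3B subunit and clamps the branch site, stood at 216, 10.5 and 159.8 CPM in HPC and 228, 164 and 186 CPM in LPC. The HPC library of set B, with 18 counts, was far below the other 5. The fit gave a log2 fold change of -0.58 ± 0.84 with no block, -0.04 without that library and -0.16 ± 0.14 without set B.

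The SF3A subunits were each lower in HPC in both A and C. Sf3a2 stood at 25.9, 19.8 and 21.9 CPM in HPC and 42.5, 22.6 and 29.2 CPM in LPC, lower in HPC in each set, and its log2 fold change was -0.48 ± 0.47 with no block and -0.57 ± 0.22 without set B (edgeR adjusted p = 0.259). The median without set B was -0.38 over the 3 SF3A genes and -0.16 over the 5 SF3B genes, a gap that was not tested. Sf3b5, a small SF3B subunit, was nearest to 0, with 64.9, 30.8 and 49.6 CPM in HPC and 67.1, 38.3 and 48.2 CPM in LPC.

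Among the Snrp genes, Snrpd3, a subunit of the Sm ring, stood at 91.4, 99.5 and 40.1 CPM in HPC and 133, 120.1 and 70.5 CPM in LPC. HPC was lower in each set, and the log2 fold change was -0.49 ± 0.47 with no block and -0.69 ± 0.17 without set B, where the edgeR adjusted p was 0.0397. With limma-voom the adjusted p was 0.143. Snrpd3 lies at chr10:75517551-75537381 on the plus strand and overlaps exons of Gucd1 on the opposite strand.

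Snrpg, also of the ring, stood at 240.1, 139.7 and 192 CPM in HPC and 279, 224 and 312 CPM in LPC, lower in HPC in each set. Its log2 fold change was -0.51 ± 0.38 with no block and -0.47 ± 0.14 without set B (edgeR adjusted p = 0.117). Snrpe, another ring subunit, stood at 204, 243 and 165 CPM in HPC and 265, 208 and 204 CPM in LPC, and set B went against A and C. Snrpe shares 3′ end sequence with 2 other annotated genes, neither of them in the table. Without set B all 7 ring genes had a log2 fold change below 0, with a median of -0.35, and so did the 4 genes of U1- and U2-specific proteins, with a median of -0.26.

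Those 4 genes were Snrpa and Snrpc of U1 and Snrpa1 and Snrpb2 of U2. Snrpa stood at 20.3, 1.16 and 13.7 CPM in HPC and 31.6, 34.6 and 16.5 CPM in LPC. Its log2 fold change of -1.20 ± 0.87 was the lowest of the family, with 2 counts in the HPC library of set B, and was -0.69 without that library and -0.46 ± 0.27 without set B. Snrpc had the highest, at 0.14 ± 0.46, with 101, 99.5 and 61.0 CPM in HPC and 118, 46.6 and 73.0 CPM in LPC. It was lower in HPC in A and C and higher in B, and its log2 fold change turned to -0.25 ± 0.16 without set B. Both Snrpa and Snrpc share 3′ end sequence with other annotated genes, 5 and 3 of them, so their counts are uncertain.

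All 3 members whose groups did not overlap, a feature of 3.31% of all genes in this direction, were Prpf genes, and nothing is read from so small a count. Prpf38b stood at 115, 112 and 131 CPM in HPC and 148, 515 and 156 CPM in LPC. The 3 HPC values lay close together and the LPC library of set B stood apart, and the log2 fold change was -1.19 ± 0.55 (edgeR unadjusted p = 0.0612), -0.35 without that library and -0.31 ± 0.15 without set B.

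Prpf3, a tri-snRNP protein bound to the U4/U6 duplex, stood at 12.5, 0 and 4.79 CPM in HPC and 13.4, 17.2 and 12.7 CPM in LPC. In set B it had 0 counts in HPC and 60 in LPC, so that HPC was at least 9.82-fold lower against a floor of 3 counts (1.75 CPM), which covers counting error only. By the same bound, Prpf39 (0 against 302 counts) was at least 49.4-fold lower in that set, Sf3b3 (0 against 31) at least 5.08-fold and Srsf4 (0 against 24) at least 3.93-fold. In sets A and C the log2 differences of Prpf39 were -0.15 and -0.06, and those of Sf3b3 were -0.08 and -0.47. Srsf4 went the other way in set A, with 10 counts in HPC and 1 in LPC, and had 5 and 7 in set C.

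Prpf4b, which encodes a kinase of spliceosomal proteins, had the lowest log2 fold change of the family at -1.34 ± 0.77. It stood at 39.5, 85.0 and 111 CPM in HPC and 52.6, 428 and 117 CPM in LPC, and without the LPC library of set B the log2 fold change was -0.12. Prpf38a, which encodes a component of the complex that forms before activation, had the highest, at 0.26 ± 0.78, with 20.2, 11.1 and 12.5 CPM in HPC and 23.5, 4.29 and 8.71 CPM in LPC. Prpf19, which encodes the ubiquitin ligase at the centre of the complex that bears its name, had the lowest of the fold changes just outside the threshold without set B, at -0.71 ± 0.20 (edgeR adjusted p = 0.105). Its levels of 32.7, 34.3 and 64.9 CPM in HPC and 72.6, 32.3 and 79.9 CPM in LPC gave a wide gap in A, a smaller one in C and none in B.

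**Figure D4:**
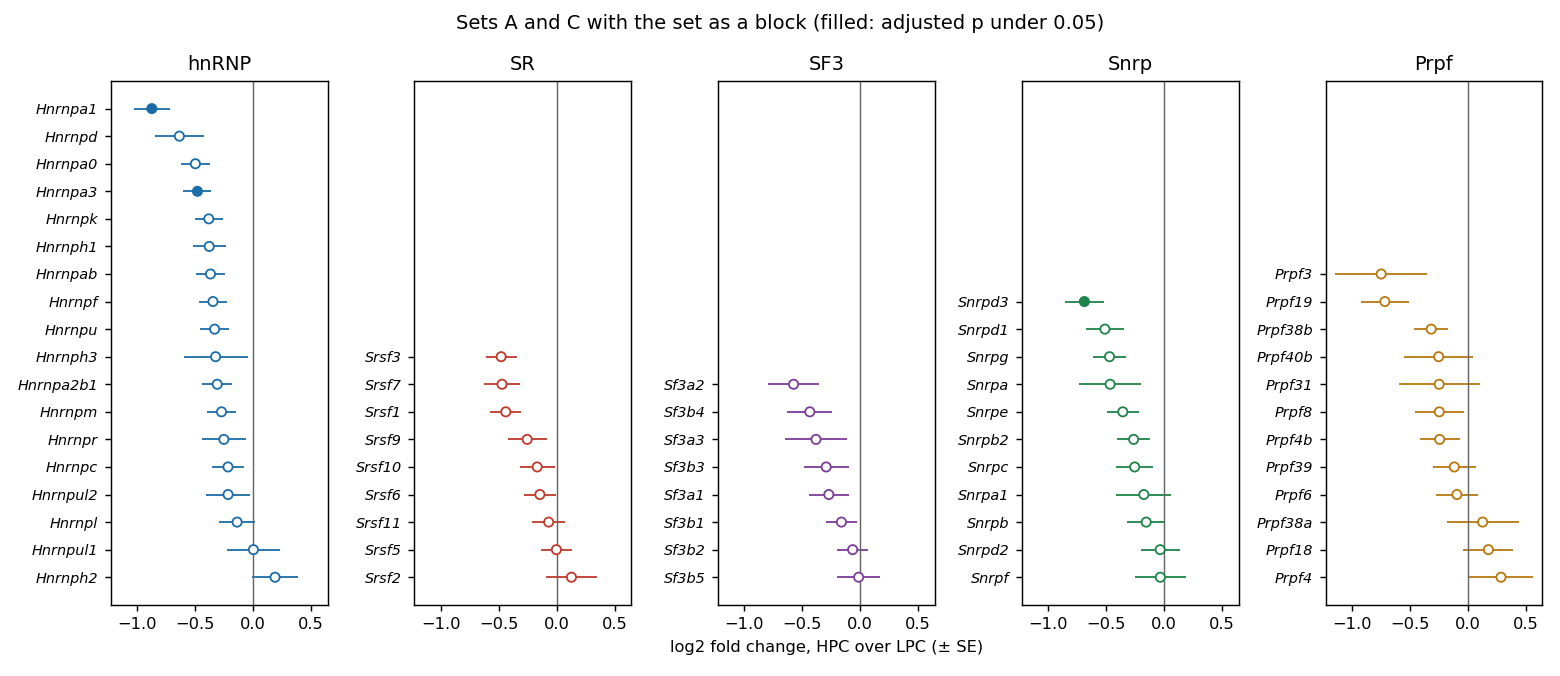
Log2 fold change of the tested members, HPC against LPC, in edgeR with the set as a block and without set B (horizontal axis, bars are 1 SE), by family. Most points lie below 0, 1 tested Prpf member is not drawn, and the 3 called members, Hnrnpa1, Hnrnpa3 and Snrpd3, are filled.

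The other genes of the pathway were taken from 6 lists of 155 genes. Under the group-only fit no listed gene was called, and without set B the block fit called 3, all lower in HPC (0.37% of all genes were called lower and 0.932% higher). The 27 tested hnRNP-type RNA binding proteins outside the Hnrnp symbols had a median log2 fold change of -0.37, and -0.22 without set B. They held 2 of the calls, Sfpq among them. Sfpq, which encodes a paraspeckle protein, stood at 193, 11.6 and 132 CPM in HPC and 285, 215 and 193 CPM in LPC, with -0.57 ± 0.14 without set B (edgeR adjusted p = 0.0361).

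Another call was Isy1, which encodes a protein that works with the Prpf19 complex, and whose HPC libraries lay at 22, 8.15 and 23.4 CPM, all below the LPC libraries at 43.6, 24.9 and 40.4 CPM. Without set B its log2 fold change was -0.90 ± 0.22 (edgeR adjusted p = 0.0371). The 32 tested genes of its list, Prpf19 complex members and helicases, had a median of -0.19, and -0.16 without set B. The lists of other snRNP and 3′ splice site proteins (30 tested), exon junction and cap binding proteins (16) and Sm assembly factors (15) held no call, with medians of -0.20, -0.31 and -0.02 over all libraries and -0.28, -0.21 and -0.39 without set B. The Sm assembly genes, which load the ring onto snRNAs, had median within-set differences of -0.20 and -0.22 in A and C and 0.86 in B.

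The 25 tested SR-related proteins and SR kinases followed the SR and Prpf genes in set B. Their median log2 fold change was -0.63 with all libraries, with 24 of 25 below 0, and -0.08 without set B, and the median within-set difference was -1.58 in B. Luc7l3, a U1-associated protein with an RS domain, is an example: it stood at 224, 223 and 218 CPM in HPC and at 268, 1008 and 281 CPM in LPC. Its 3 HPC values were nearly equal, and the LPC library of set B stood alone, as it did for Srsf11, Prpf38b and Prpf4b.

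All 60 members matched a gene of GENCODE vM21 and lie on 18 chromosomes. Exons of 21 members overlap an exon of another gene on the opposite strand and those of 5 one on the same strand, and 10 share at least 100 bases at 95% identity or more with other genes in their last 400 bases. Neither applies to 29 members, among them Hnrnpa1, Srsf11 and Prpf38b. The counts of the other members can hold reads from, or have lost reads to, such neighbours and copies.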

How the data were processed

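RNA of the sorted B16-F10 cells was made into QuantSeq forward 3′ libraries and sequenced on an Illumina NextSeq, per the labels' protocols. The deposited table holds unnormalised gene counts from HTSeq, as its tally rows show; reads were aligned with STAR to GRCm38, per the submitters' processing notes. The counting settings, strand use and annotation are not given in the sources used here, and molecular identifiers are not mentioned. Tally rows entered neither library sizes nor tests (no feature 12.4% to 29.5%, ambiguous 0.487% to 2.51% of tallied reads). Every pair of libraries differed by more than sampling noise (smallest chi-square per degree of freedom 13.5).

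Counts were fitted over the whole table with edgeR 4.0.16 (glmQLFit and glmQLFTest, robust) in R 4.3.3 after filterByExpr (minimum count 10) and TMM, with Benjamini-Hochberg adjustment and a threshold of 0.05. CPM used TMM sizes, and within-set log2 differences a prior count of 2. Alternatives were DESeq2 1.42.0, RLE scaling, no filter, the set as a replicate block with and without set B, limma 3.58.1 voom with sample weights, 3 abundant rows left out, and each library left out. The fits were run on simulated counts with planted changes larger than most of those described here. Those runs do not show whether changes of the size seen here would be called. Libraries with 1 suffix deviated together (correlations 0.466, 0.316 and 0.422 for sets A, B and C, above the minimum of 0.1), so the suffix pairs them. Named were, per family, the 2 highest members, the 2 with the smallest p, the highest and lowest log2 fold change at 10 CPM or more, and members called with the block; per pathway list, the gene with the smallest p and any called; others were named after their values were seen, and some genes the rule names are not reported here. The members and lists were chosen with earlier results of these data known. Shared sequence was searched with blastn 2.17.0; figures used matplotlib 3.10.9.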

Additional observations from a re-analysis of the deposited data

How the results depend on the processing

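No member and no listed gene was called with all 6 libraries by edgeR, with RLE scaling, no filter, DESeq2, the replicate block or 1 library left out. Of the fits run, 2 gave calls, both paired: 3 members and 3 listed genes with the replicate block without set B, and 1 member and 1 listed gene with limma-voom weights and the block. The Snrp median of -0.38 moved to -0.29 with the replicate block and -0.26 with the block without set B. It was -0.25 with set B left out and no block, and -0.20 with limma-voom. The SR median of -0.39 moved to -0.17 with the block without set B and -0.23 with limma-voom. The Prpf median of -0.48 moved to -0.24 in both of these fits. The hnRNP median of -0.32 was -0.33 in both, and the SF3 median of -0.26 was -0.28 in both. Leaving out 1 library gave medians from -0.57 to -0.0624 for all members, -0.68 to -0.0306 for hnRNP, -0.66 to 0.0129 for SR (above 0 without the HPC library of set B), -0.58 to -0.0261 for SF3, -0.57 to -0.18 for Snrp and -0.79 to -0.35 for Prpf, while the median of all genes ran from -0.15 to 0.05. Snrpc turned to -0.25 with the block without set B, -0.25 with set B left out and no block, and -0.19 with limma-voom. With 1 library left out, log2 fold changes changed sign for Snrpc (-0.14 to 0.54), Hnrnpul1 (-0.0942 to 0.27), Prpf38a (-0.14 to 1.16), Hnrnpk (-0.68 to 0.0329), Srsf5 (-0.33 to 0.14), Sf3b5 (-0.35 to 0.17) and Srsf2 (-0.0653 to 0.77). With 68 counts for the median member in the HPC library of set B, single genes there are poorly measured.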
